A study of Mus musculus with 6 samples.

Results

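Mitochondrial ribosomal proteins are the nuclear-encoded proteins of the ribosome inside mitochondria. The genes described here were all entries whose symbol begins with Mrpl (large subunit) or Mrps (small subunit) followed by a number and at most a letter a to c. The rule took 77 of 35491 named entries, 48 Mrpl and 29 Mrps genes, and used no measured value. Gastrocnemius, a calf muscle made mostly of fast-twitch fibres, was taken from male mice at an age of 20 weeks, fed chow and otherwise untreated. The 3 Control mice were C57BL/6J. The 3 Ogg1Tg mice, on the same strain background, carried human OGG1-1a, a DNA repair enzyme, fused to a mitochondrial targeting signal and driven by a CMV/AG promoter rather than a muscle promoter. The comparison asks how transcripts in muscle differ when this enzyme is directed to mitochondria.

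The mitochondrial ribosome, or mitoribosome, makes the few proteins encoded by mitochondrial DNA, all of them subunits of the respiratory chain and ATP synthase. Its ribosomal RNAs come from mitochondrial DNA, while all its proteins are imported from the cytosol, so its assembly joins products of both genomes. The large subunit holds the site of peptide bond formation and the exit tunnel, the small subunit reads the codons, and many of the proteins have no bacterial counterpart.

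Values are scaled reads: the reads counted in a gene, multiplied by 1 factor per library and not corrected for gene length. Reads in named genes ranged from 45189860 to 56126407 per library. All 10 muscle fibre markers (Ckm and Acta1 among them) were present in every library. Ogg1Tg replicate 3 stood apart, with Spearman correlations over tested genes of 0.946 to 0.954 with the other libraries, which reached up to 0.980 to 0.983 among themselves. In that library the summed level of 12 neutrophil and lymphocyte markers was 14796 scaled reads, against 242 to 329 in the other 5, and the median muscle fibre marker was 0.87 log2 units under the Control mean. Results are therefore given with and without it. Mouse Ogg1 read 154, 225 and 193 in Control and 176, 201 and 193 in Ogg1Tg replicates 1 to 3, which does not check the human transgene.

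Regulatory sequence of the family is shown first, because shared promoter elements are a feature that the rule did not use. RefSeq start sites on GRCm38.p6 gave 74 windows for 68 of the 77 genes, each of 250 bases before and 50 after a start. Exact letters were searched on both strands. The NRF1 motif GCGCATGCG was in 9.46% of the family's windows and in 1.75% of all 32851 windows, and the YY1 motif AAGATGGCG was in 10.8% and 1.40%. By subunit, NRF1 was in 6 of 47 large (12.8%) and 1 of 27 small subunit windows (3.7%). YY1 was in 8.51% of large and 14.8% of small subunit windows. The ETS motif CCGGAAGT was in 14.9% and 3.89%, the E-box CACGTG in 9.46% and 7.15%, and the ATF4-type motif TGATGNAAT in 0% and 0.965%. The 7 family windows with an E-box came from 5 genes, since overlapping windows of Mrpl2 hold the same site. By gene the E-box was in 5 of 68 family genes and 2187 of all 27025 genes with windows, so it was not more frequent in the family. In windows of all tested genes the NRF1, ETS, YY1 and E-box letters were in 2.76%, 6.16%, 2.23% and 8.78%. Expressed genes in general thus held these letters more often than all windows. The other lists had like shares for some motifs only. Nuclear oxidative phosphorylation genes held the NRF1 letters in 10.3% and the YY1 letters in 10.3% of windows, but the ETS letters in 5.88%. Cytosolic ribosomal protein genes held the ETS letters in 16.4%, but the NRF1 letters in 4.11% and the YY1 letters in 6.85%. NRF1, ETS-family factors such as GABP, and YY1 are known regulators of nuclear genes for mitochondria. A match is a description of letters, not a binding site, and 45 of the 74 windows held none of the 5 motifs.

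The windows of Mrpl22, Mrps22 and Mrps18a are printed from 250 bases before to 30 bases after the start, 5′ to 3′ on the gene's strand, as examples of a match to each of the 3 motifs that were most frequent relative to all windows. Capitals mark the match. Mrpl22 lies at chr11:58171414-58171693 (+) with an NRF1 match, Mrps22 at chr9:98601650-98601929 (-) with an ETS match, and Mrps18a at chr17:46110754-46111033 (+) with a YY1 match. The matches of Mrpl22 and Mrps22 lie before the start, and that of Mrps18a lies after it, in transcribed sequence.
Mrpl22: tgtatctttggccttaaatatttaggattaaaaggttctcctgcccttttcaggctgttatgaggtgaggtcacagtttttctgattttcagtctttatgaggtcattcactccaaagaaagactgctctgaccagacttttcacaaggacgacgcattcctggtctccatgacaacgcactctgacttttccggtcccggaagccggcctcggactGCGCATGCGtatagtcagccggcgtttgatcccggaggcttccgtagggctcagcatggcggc
Mrps22: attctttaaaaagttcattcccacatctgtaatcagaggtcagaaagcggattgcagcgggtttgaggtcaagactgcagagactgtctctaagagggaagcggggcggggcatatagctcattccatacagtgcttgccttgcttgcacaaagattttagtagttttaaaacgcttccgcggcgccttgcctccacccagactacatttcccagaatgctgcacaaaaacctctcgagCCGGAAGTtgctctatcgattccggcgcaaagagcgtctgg
Mrps18a: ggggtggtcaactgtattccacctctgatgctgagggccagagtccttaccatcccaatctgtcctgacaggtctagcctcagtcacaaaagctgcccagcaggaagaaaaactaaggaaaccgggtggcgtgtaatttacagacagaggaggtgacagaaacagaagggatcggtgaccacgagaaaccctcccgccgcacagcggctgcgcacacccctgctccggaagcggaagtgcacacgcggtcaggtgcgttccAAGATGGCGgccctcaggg

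Median log2 fold changes of genes with and without a match, given with no test, were -0.05 with and -0.11 without for NRF1 (7 and 60 tested genes), -0.07 and -0.11 for ETS (11 and 56), and -0.10 and -0.10 for YY1 (8 and 59).

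Of the 77 genes, 76 had a mean of at least 1 scaled read over the 6 libraries and were tested, 47 large and 29 small subunit genes. Mrpl53 was the exception. It read 0, 1.40 and 0 in Control and 0, 0 and 1.01 in Ogg1Tg libraries, and 87.97% of its annotated exon bases are also exon of Gm42688 on the same strand, and no source used here says how reads of shared exons were assigned.

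No mitochondrial ribosomal protein gene passed the test between Ogg1Tg and Control mice. With limma on log2(value + 1) and Benjamini-Hochberg adjustment over all 23312 genes tested, 0 of 76 members passed an adjusted p under 0.05, against 0.545% of all genes. The lowest adjusted p in the family was 0.463, for Mrps11. At an unadjusted p under 0.05 the count was again 0 of 76, against 11% of all genes (2570). The same count by edgeR and by DESeq2 on recovered reads was 0 at adjusted p under 0.05. The labels do not say whether the mice came from separate litters, so these p-values measure the spread between these 6 animals.

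The intervals of the fit bound the difference of each gene. All 76 confidence intervals (95%) of the log2 fold change lay within 2-fold in either direction, running from -0.92 at the lowest bound to 0.74 at the highest, and 51 lay within 1.5-fold. Fitted values within 0.1 of 0 on the log2 scale were held by 28 genes. A p that misses the threshold does not show equality, and the median interval reached 0.39 log2 units to either side of its fitted value.

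**Figure D1:**
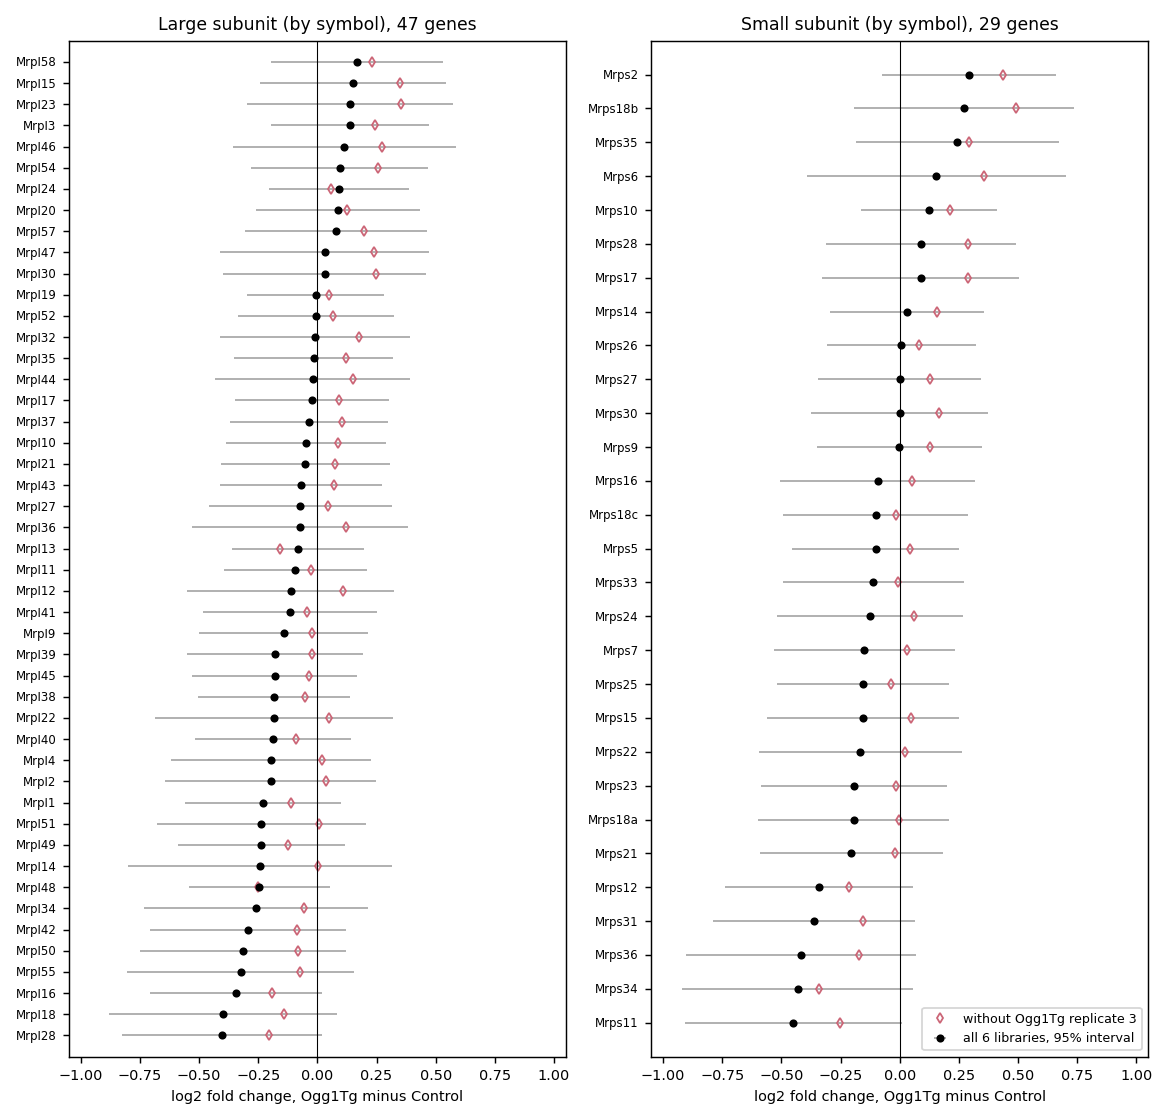
Log2 fold change (Ogg1Tg minus Control, horizontal axis) of the 47 large and 29 small subunit genes tested, with black points and 95% intervals from all 6 libraries and open diamonds from the fit without Ogg1Tg replicate 3. Every interval includes 0, and most diamonds lie to the right of their point.

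The sign of the family's change rested on 1 library. In all 6 libraries 22 members were above 0 and 54 below, with a median log2 fold change of -0.10. Without Ogg1Tg replicate 3, 47 were above 0 and 29 below, the median was 0.05, and 25 members had changed sign. Over all genes tested the median was -0.02 with and -0.04 without that library. On the deposited scale Ogg1Tg replicate 3 gave the lowest of the 6 values for 65 of 76 members and was below the whole Control range for 66. In contrast, Ogg1Tg replicate 1 was above the whole Control range for 42 members, and replicate 2 was above it for 20 and below it for 21. The coefficient of variation within a group had a median of 6.15% over members in Control and 18.4% in Ogg1Tg. In bulk tissue fewer cells of a type and less RNA per cell cannot be told apart.

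Levels of marker lists differed between libraries, with 0 genes called in the lists given here. The 8 slow-twitch fibre markers, of the more oxidative muscle fibres, (Myh7 among them) lay above 0 in 8 of 8 cases, at a median of 0.99 on the log2 scale, with 0 at 0 reads in any library. Their summed level was 34239 to 88479 scaled reads in Control and 95737 to 151499 in Ogg1Tg libraries. The 8 adipocyte markers had medians of -0.28, -0.29 and 2.06 log2 units from the Control mean in Ogg1Tg replicates 1 to 3. Their sum, most of which was Plin4, was 15831 to 17936 in Control and 15398, 16573 and 22213 in Ogg1Tg. The 8 macrophage markers had medians of -0.40, -0.74 and 0.67 in the same libraries. Of 6 erythroid markers, 6 were below 0, with a median log2 fold change of -0.82, or -0.67 without Ogg1Tg replicate 3. Of the 12 neutrophil and lymphocyte markers 1 to 3 were at 0 in each Control library and 0 in each Ogg1Tg library. The part of these markers in the levels of the mitoribosomal genes was not tested.

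The family's direction also depended on the scaling. As deposited the median of the large subunit genes was -0.08 and that of the small subunit genes -0.10, but after scaling to total reads, an alternative added after seeing the data, they were 0.16 and 0.14, and edgeR gave 0.01 for the large subunit. Scaling to total reads moved the median of all genes by 0.24, and relative to the all-gene median the family stood at -0.07 both as deposited and after that scaling. As a share of all reads in named genes, the family took 0.110% ± 0.00425 (SD, n = 3) in Control and 0.121% ± 0.00961 in Ogg1Tg libraries. By library the share was 0.105%, 0.113% and 0.111% in Control and 0.128%, 0.110% and 0.124% in Ogg1Tg replicates 1 to 3. On that measure Ogg1Tg replicate 3 was thus above every Control library, not below. Totals of scaled reads differed between libraries, from 45456582 in Ogg1Tg replicate 3 to 72209954 in Control replicate 1.

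**Figure D2:**
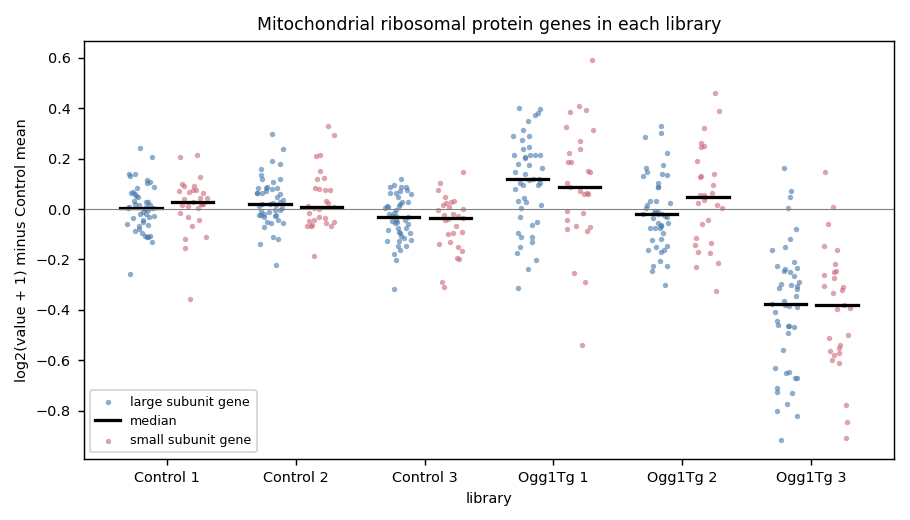
Each point is 1 tested mitochondrial ribosomal protein gene in 1 library, as log2(value + 1) minus its Control mean (vertical axis), with large subunit genes in blue, small subunit genes in red and bars at the medians. Both subunits sit near 0 in the Control libraries and at about -0.38 in Ogg1Tg replicate 3.

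Large and small subunit genes had close medians in every library. The large subunit medians, as log2 differences from the Control mean, were 0.004, 0.02 and -0.03 in Control and 0.12, -0.02 and -0.38 in Ogg1Tg replicates 1 to 3. The small subunit medians were 0.03, 0.01 and -0.04 in Control and 0.09, 0.05 and -0.38 in Ogg1Tg. On the deposited scale both subunits were thus lowest in Ogg1Tg replicate 3 and highest in Ogg1Tg replicate 1.

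The large minus small difference of median log2 fold changes was 0.02 with all libraries and 0.001 without Ogg1Tg replicate 3. The pooled SD between libraries of the same difference was 0.04, so the difference between the subunits was smaller than the spread of that difference between libraries. Summed large subunit reads were 2.06, 2.11 and 2.08 times the small subunit reads in Control libraries and 2.05, 1.99 and 2.05 times in Ogg1Tg libraries, and the lowest ratio, in Ogg1Tg replicate 2, was not in the library with the lowest levels.

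Symbols do not always match the subunit. Mrps30 and Mrps18a sit in the large subunit in structures of the mammalian mitoribosome, and Mrps36 is now known as a subunit of the oxoglutarate dehydrogenase complex. With genes placed by structure, the medians remained -0.08 for the large and -0.10 for the small subunit. Members with a bacterial homologue had a median of -0.08 (47 genes) and those found only in mitochondrial ribosomes -0.14 (28 genes). Without Ogg1Tg replicate 3 these medians were 0.05 and 0.0003.

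Among the large subunit proteins named for set roles, Mrpl2, Mrpl3 and Mrpl4 had log2 fold changes of -0.20, 0.14 and -0.20. Mrpl2 read 1148, 1171 and 1053 scaled reads in Control and 1199, 1109 and 706 in Ogg1Tg replicates 1 to 3. Mrpl3 read 1384, 1582 and 1513 in Control and 1967, 1586 and 1412 in Ogg1Tg. Mrpl2 and Mrpl4 shared 1 pattern, with Ogg1Tg replicates 1 and 2 near the Control values and replicate 3 far under them, whereas Mrpl3 was high in Ogg1Tg replicate 1.

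The stalk proteins, which recruit translation factors, had log2 fold changes of -0.05 (Mrpl10), -0.09 (Mrpl11) and -0.11 (Mrpl12). Mrpl10 stood at 784 ± 11.3 (SD, n = 3) scaled reads in Control and 764 ± 121 in Ogg1Tg, Mrpl11 at 591 ± 17.1 and 555 ± 45.1, and Mrpl12 at 1952 ± 112 and 1849 ± 493. Their limma adjusted p values were 0.926, 0.822 and 0.853. The groups overlapped for all 3 genes, and the Ogg1Tg spread exceeded the Control spread in each.

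At the exit of the peptide tunnel, Mrpl22, Mrpl23 and Mrpl24 line the opening and Mrpl45 anchors the ribosome to the inner membrane. Mrpl22 was nearly constant in Control, at 305, 306 and 304, and ranged over 344, 290 and 194 in Ogg1Tg replicates 1 to 3. Mrpl24 read 668, 708 and 758 in Control and 788, 693 and 796 in Ogg1Tg, the only member with its highest value in Ogg1Tg replicate 3. Mrpl45 read 1349, 1474 and 1543 in Control and 1498, 1340 and 1049 in Ogg1Tg. Fold changes of these 4 genes ran from -0.18 to 0.14 on the log2 scale with a lowest limma adjusted p of 0.702.

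In the small subunit, Mrps12, the homologue of the bacterial decoding protein S12, read 474, 488 and 393 in Control and 377, 400 and 297 in Ogg1Tg. Its log2 fold change was -0.34 with a standard error of 0.17 and a limma adjusted p of 0.515. Only the lowest Control library and Ogg1Tg replicate 2 overlapped. Mrps7, of the head of the small subunit, had -0.15, Mrps22, in which human variants cause cardiomyopathy, -0.17, and Mrps27, a pentatricopeptide repeat protein, 0.00.

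The 3 paralogs of bacterial S18 did not share a direction. Mrps18a had a log2 fold change of -0.19 (limma adjusted p 0.719), Mrps18b 0.27 (0.664) and Mrps18c -0.10 (0.854). Mrps18b read 352, 389 and 368 in Control and 558, 484 and 330 in Ogg1Tg, with Ogg1Tg replicates 1 and 2 above all Control libraries and replicate 3 below them. Mrps18c overlapped between groups, with 412, 340 and 320 in Control and 334, 369 and 294 in Ogg1Tg.

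Mrps30 had 840, 828 and 842 in Control and 1009, 874 and 665 in Ogg1Tg, a fitted log2 fold change of 0.00. The Ogg1Tg libraries lay on both sides of the Control range, replicates 1 and 2 above it and replicate 3 below. Mrps36, the dehydrogenase subunit, read 964, 1074 and 925 in Control and 976, 786 and 524 in Ogg1Tg, with a log2 fold change of -0.42 and a limma adjusted p of 0.518. Annotated copies of Mrps36 and Mrpl23 were also assigned reads, so how reads were divided between gene and copy is uncertain.

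The lowest fitted change in the family was that of Mrps11, a protein of the small subunit platform. It read 349, 322 and 329 scaled reads in Control replicates 1 to 3 and 272, 287 and 185 in Ogg1Tg replicates 1 to 3. The log2 fold change was -0.45 ± 0.20 (SE, n = 3 per group) with a limma adjusted p of 0.463, and without Ogg1Tg replicate 3 it was -0.25 with 0.510. All 3 Ogg1Tg libraries lay below all 3 Control libraries, and replicate 3 was the lowest.

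Mrps34 (-0.43), Mrpl28 (-0.40), Mrpl18 (-0.40) and Mrps31 (-0.36) were the other ribosomal members with the lowest log2 fold changes. Mrps34, which has no bacterial homologue, shares 63.42% of its exon bases with Mapk8ip3 on the opposite strand and 36.97% with Nme3 on its own, and no source used here gives the strand setting of the counting. It read 301, 276 and 213 in Control and 179, 235 and 170 in Ogg1Tg. Mrpl18, a protein of the central protuberance, read 1772, 1993 and 1611 in Control and 1630, 1610 and 947 in Ogg1Tg. Mrpl28 read 1011, 975 and 871 in Control and 765, 889 and 545 in Ogg1Tg. In these 3 genes an Ogg1Tg library reached the Control range, and in Mrpl18 the first 2 Ogg1Tg libraries lay near the lowest Control value.

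The highest fitted change was that of Mrps2, homologue of a bacterial small subunit protein, at 752, 828 and 664 in Control and 991, 1027 and 749 in Ogg1Tg. Its log2 fold change was 0.29 ± 0.16 (SE) with a limma adjusted p of 0.553, and 0.44 with 0.131 without Ogg1Tg replicate 3. Ogg1Tg replicates 1 and 2 lay above every Control library and replicate 3 lay inside the Control range. When all genes were rescaled to the family's median, Mrps2 had the lowest adjusted p of the family, 0.328, and 0 of 76 members passed.

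Mrps18b (0.27), Mrps35 (0.24), Mrpl58 (0.17), Mrps6 (0.16) and Mrpl15 (0.15) followed in order of log2 fold change. Mrpl58, a peptidyl-tRNA hydrolase built into the large subunit, read 534, 462 and 402 in Control and 575, 512 and 478 in Ogg1Tg. Mrps35 read 392, 631 and 512 in Control and 660, 574 and 556 in Ogg1Tg, so that its Control spread covered most of the Ogg1Tg values. Mrpl15 read 1485, 1388 and 1442 in Control and 1895, 1773 and 1211 in Ogg1Tg, with 2 libraries above and 1 below the Control range. Mrps6 read 215, 260 and 171 in Control and 278, 266 and 179 in Ogg1Tg.

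Complete separation of the groups was found for 5 members. All 3 Ogg1Tg libraries lay below all Control libraries for Mrps11, Mrps31, Mrpl16, Mrpl50 and Mrpl40, which is 5 of 76 against 11.3% of all genes. The reverse held for 0 members against 7.03% of all genes. Mrpl16 read 782, 849 and 880 in Control and 741, 724 and 533 in Ogg1Tg. Mrps31 read 728, 720 and 707 in Control and 681, 613 and 418 in Ogg1Tg. Mrpl40, of the central protuberance, read 581, 540 and 527 in Control and 509, 521 and 421 in Ogg1Tg. The margin between the groups was small in all 3, and the lowest value again came from Ogg1Tg replicate 3.

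Without Ogg1Tg replicate 3, the remaining Ogg1Tg libraries both lay above the Control range for 18 of 76 members, against 13% of all genes, and both below it for 6, against 16.7%. With 2 against 3 libraries limma called 0 of 76 members and 1.86% of all genes (425 of 22815). With the filter taken on all 6 libraries it called 0 members and 28 of 23312 genes. At an unadjusted p under 0.05 the former fit had 8 members, all higher in Ogg1Tg, against 13.9% of all genes. The lowest adjusted p values were 0.121 for Mrpl15, 0.129 for Mrps18b, 0.131 for Mrps2 and 0.184 for Mrpl23. On the log2 scale these 4 genes had fold changes of 0.35, 0.49, 0.44 and 0.36 in that fit.

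The other 36 tested members had Control means from 299.99 to 2877 scaled reads, log2 fold changes from -0.32 to 0.12 and a lowest limma adjusted p of 0.533. Of these, 8 were above 0. Their order along the log2 axis can be read from the plot of fold changes with intervals.

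Levels are compared between genes per kb of the principal transcript. Over the 76 tested genes the mean of the 6 libraries ranged from 98.9 scaled reads per kb for Mrps25 to 5309 for Mrpl42, with a median of 484, or 549 in the large and 413 in the small subunit. The quartiles were 326 and 977. Mrpl42 stood at 5805 ± 536 (SD, n = 3) per kb in Control and 4812 ± 1103 in Ogg1Tg. In the large subunit Mrpl23 (1946) and Mrpl30 (1857) came next, less than their spread apart. In the small subunit Mrps21 was highest at 3358, ahead of Mrps15 (1451) and Mrps23 (1412), and the last pair did not differ beyond its spread. Mrpl47 (162), Mrps17 (121) and Mrps25 were at the low end.

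The order of the levels was similar in all libraries. Spearman correlations of the per kb levels between Control replicate 1 and the other libraries were 0.965 to 0.986 over the 76 tested genes, which share library and annotation. The order depended on the length used. With the union of all annotated exons, an alternative added after seeing the data, Mrpl42 stood at rank 7 of 77 with 960 per kb instead of rank 1, Mrpl23 at rank 46 instead of 3, and Mrpl30 at rank 18 instead of 4. Mrpl12 (1240 per kb) was then the highest large subunit gene, while Mrps21 (2217) remained the highest small subunit gene.

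**Figure D3:**
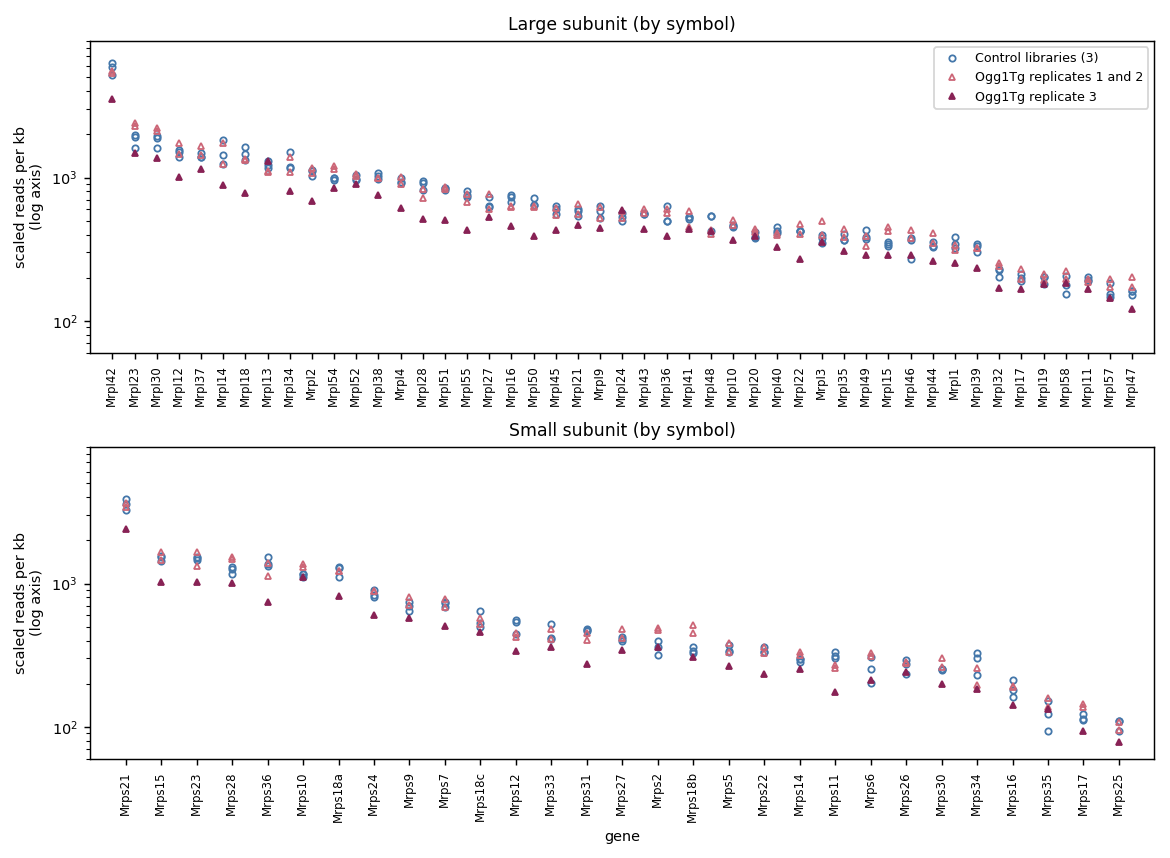
Scaled reads per kb of principal transcript (vertical log axis) of each tested gene, ordered by mean, with Control libraries as open circles, Ogg1Tg replicates 1 and 2 as open triangles and replicate 3 as filled triangles. With this length Mrpl42 and Mrps21 lead their subunits (with exon-union length Mrpl12 leads the large subunit), and replicate 3 is the lowest point of most genes.

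Head-to-head genes were frequent in the family. Of 76 tested members, 32 (42.1%) had the 5′ end of a protein-coding gene of the opposite strand within 1000 bases of their own, against 12.9% of 16724 tested protein-coding genes. These made 31 pairs, of which 18 had the same sign of log2 fold change, and 0 partners were called. Only 12 partners and 22 of the 76 members were above 0, so many pairs share a sign without any link. The largest partner change was that of Mtbp (0.76), paired with Mrpl13 (-0.08) and of opposite sign. Mrpl36 (-0.07) is paired with Ndufs6 (-0.29) and Mrpl47 (0.03) with Ndufb5 (-0.41), both partners being complex I subunits. Mrps12 (-0.34) is paired with Sars2 (-0.21), the mitochondrial seryl-tRNA synthetase, and Mrpl43 (-0.07) with Twnk (-0.15), the mitochondrial DNA helicase.

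In 1 pair both genes are members. Mrps11, transcribed along the plus strand of chromosome 7, and Mrpl46, along the minus strand, have annotated 5′ ends that overlap, with 173 exon bases in common. The RefSeq starts leave 41 bases between them, printed in capitals with 30 bases on either side (chr7:78783060-78783160, plus strand), to show how little sequence separates genes whose fitted changes differed in sign.
Mrpl46-Mrps11: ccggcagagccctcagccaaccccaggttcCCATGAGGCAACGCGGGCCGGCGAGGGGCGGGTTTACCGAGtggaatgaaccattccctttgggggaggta

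Mrpl46 read 417, 429 and 304 in Control and 491, 429 and 328 in Ogg1Tg, a log2 fold change of 0.11 ± 0.21 (SE) beside -0.45 ± 0.20 for Mrps11. Neither change passed the test, and their difference was not tested. Without strand, reads from the shared exon bases cannot be assigned to either gene.

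The other components of mitochondrial translation were described by lists. For 5 mitoribosome subunits with other names, among them Dap3 and Ptcd3, 0 of 5 passed and the median log2 fold change was -0.13. For 26 assembly factors, such as the GTPases Mtg1 and Noa1, 0 of 26 passed, 11 were above 0 and the median was -0.01. For 14 translation factors 0 of 14 passed, 0 were above 0, and the median was -0.20. Of the 14, 2 had an unadjusted p under 0.05, near the share of 11% over all genes. The all-gene median was -0.02. Without Ogg1Tg replicate 3 these medians were 0.12 with 3 of 5 above 0, 0.04 with 16 of 26 above 0, and -0.11 with 2 of 14 above 0, and again 0 were called in each list.

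Tsfm, the exchange factor of the elongation factor Tufm, had the lowest log2 fold change of the translation factors, -0.56 with a limma adjusted p of 0.383. It read 331, 460 and 393 in Control and 315, 291 and 204 in Ogg1Tg. Tufm read 2627, 2595 and 2580 in Control and 2565, 2163 and 1666 in Ogg1Tg, with a log2 fold change of -0.31 and a limma adjusted p of 0.522. Gfm2, a factor of ribosome recycling, had -0.32 with 0.444. For Tsfm, Tufm and Gfm2 every Ogg1Tg library lay below every Control library, which held for 11.3% of all genes. Without Ogg1Tg replicate 3 their changes were -0.37, -0.14 and -0.19. Taco1 had the next lowest change after Tsfm, -0.42 with a limma adjusted p of 0.514, and its groups overlapped. Mtif2 (-0.17) and Guf1 (-0.20) were also separated, and the groups overlapped for the remaining translation factors.

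The mitochondrial ribosomal RNAs, the scaffold of these proteins, gave 0 of 2 passing. The small subunit rRNA mt-Rnr1 read 281300, 255090 and 323360 in Control and 223980, 310740 and 114460 in Ogg1Tg. The large subunit rRNA mt-Rnr2 read 487540, 612980 and 586390 in Control and 481250, 601650 and 256800 in Ogg1Tg. Both were lowest in Ogg1Tg replicate 3, with a median of -1.22 log2 units from the Control mean beside -0.38 for the protein genes. The labels do not say whether the library kit removed rRNA. Of 13 mitochondrially encoded mRNAs, 0 were called and 13 were below 0, with a median log2 fold change of -0.59, or -0.30 without Ogg1Tg replicate 3.

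Nuclear genes of oxidative phosphorylation, the complexes to which the mitoribosome's products belong, had a median of -0.33 over 75 genes, with 0 called and 74 below 0. Without Ogg1Tg replicate 3 the median was -0.10, with 62 below 0 and 1 called (higher), against 1.86% of all genes. In Ogg1Tg replicates 1, 2 and 3 their medians were 0.01, -0.22 and -0.76 relative to the Control mean. The mitoribosomal genes had 0.11, -0.01 and -0.38 in the same libraries.

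Cytosolic ribosomal protein genes, which build the ribosome outside mitochondria, lay mostly above 0. Of 79 tested, 1 was called (higher), against 0.545% of all genes, and 61 had an unadjusted p under 0.05, against 11%. Above 0 were 77 of these genes, with a median log2 fold change of 0.36. Their medians were 0.42, 0.36 and 0.32 in Ogg1Tg replicates 1 to 3, so that replicate 3 lay 0.32 above the Control mean for these genes and 0.38 below it for the mitochondrial family. Without that library 13 of 79 were called, all higher, against 1.86% of all genes, and the median was 0.38. The all-gene count of that fit, 425, was 28 with the filter taken on all 6 libraries. The calls in this list under that filter are not given here.

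**Figure D4:**
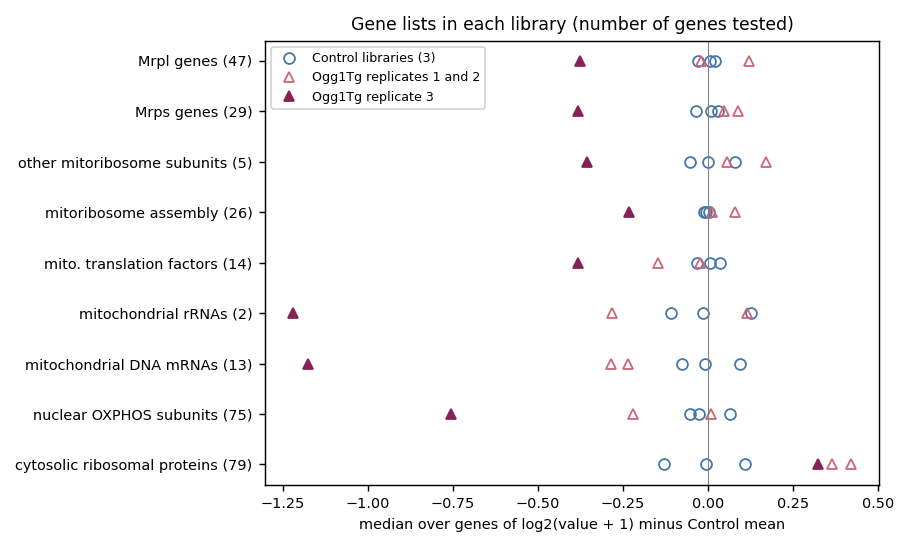
Median over the tested genes of each list of log2(value + 1) minus the Control mean (horizontal axis), per library, with the number of genes in brackets. Mrpl and Mrps genes lie together in each library, at -0.38 in Ogg1Tg replicate 3, while cytosolic ribosomal protein genes are above 0 in the 3 Ogg1Tg libraries.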

How the data were processed

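RNA from gastrocnemius of 3 Control and 3 Ogg1Tg mice was sequenced by the authors from libraries of the NuGen Ovation Universal kit, per the labels' protocols. Trimmomatic, SAMtools, HTSeq and the mm10 build are named in the submitters' processing notes. No source used here gives the aligner, the annotation or the strand setting. The deposited values are called FPKM in the file names, but they are a signal of another kind: each is a whole multiple of 1 step per library, within 0.01 reads for 100% of values, whatever the gene's length. The step of Ogg1Tg replicate 3 is 1.006, so recovery is less distinctive there. Entries without a name (1824 of 37315, 2.38% to 3.54% of reads) were left out.

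Genes with a mean of at least 1 were tested as log2(value + 1) with limma 3.58.1 in R 4.3.3 (lmFit, eBayes with a variance trend, two-sided, Benjamini-Hochberg), called at adjusted p under 0.05. A fold change on this scale understates the change of low genes. The deposited values are not raw counts, so edgeR 4.0.16 and DESeq2 1.42.0 on recovered reads were alternatives. Other alternatives were another pseudocount, other filters and scalings, other variance models, a replicate block, each library left out, and subunits placed by structure. Added after seeing the data were edgeR without Ogg1Tg replicate 3, scaling to total reads, rescaling to the family median and exon-union lengths. Coordinates and lengths are from GENCODE M21 (GRCm38), the assembly of mm10. Members named singly were the 6 highest and 6 lowest by fold change, 3 highest and 2 lowest per subunit by level per kb, those with set roles, and those whose groups do not overlap. Mrpl46 was named after its values were seen, for its pairing with Mrps11. Members and lists were chosen with earlier results of these data known. On simulated reads the limma script recovered most genes changed 2-fold. The simulation gave every library the same spread, had no outlying library like Ogg1Tg replicate 3, and changed only genes of higher level. It therefore checks the script and does not give the power of this comparison.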

Additional observations from a re-analysis of the deposited data

How the results depend on the processing

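The count of called members was 0 under every alternative run, with a lowest adjusted p between 0.0806 (edgeR without Ogg1Tg replicate 3) and 0.688 (limma without Control replicate 2). Over all genes the count of 127 became 46 without a variance trend, 622 with DESeq2, 429 with edgeR without Ogg1Tg replicate 3, 28 without that library with the filter taken on all 6, and 35 to 425 with a library left out. The cause of these shifts was not tested. With each library left out the median log2 fold change ran from -0.167 to 0.0493 for the large and from -0.190 to 0.0483 for the small subunit, and the difference between them from -0.000427 to 0.05. Scaling to total reads gave 0.163 and 0.144, and edgeR without Ogg1Tg replicate 3 gave 0.0939 for the small subunit. The labels do not say that replicate numbers pair the mice. Deviations of same-numbered libraries correlated at -0.0534, -0.00512 and 0.0306. With so few libraries these values cannot show whether mice were paired. A replicate block gave 0 members and 102 genes. Depth was like in all libraries, and 3 mice per group limit the precision.

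Several named members, none of them called, changed sign under an alternative, some near 0 in the main fit and others as far from it as Mrps21 (-0.204). Scaling to total reads or to the family median shifts all genes of a library alike, so signs that change there say nothing of a single member. Mrpl10 had a log2 fold change of 0.00648 with median-of-ratios rescaling, 0.0374 with edgeR, 0.0144 with DESeq2 and 0.0454 when rescaled to the family median, which gave Mrpl11 0.000686. Scaling to total reads gave Mrpl2 0.0475, Mrpl4 0.0491, Mrpl10 0.197, Mrpl11 0.152, Mrpl12 0.132, Mrpl22 0.0608, Mrpl40 0.0568, Mrpl45 0.0645, Mrps7 0.0955, Mrps15 0.0897, Mrps18a 0.0503, Mrps18c 0.144, Mrps21 0.0411, Mrps22 0.0789, Mrps23 0.0520 and Mrps25 0.0900. EdgeR without Ogg1Tg replicate 3 gave Mrpl2 0.0831, Mrpl4 0.0682, Mrpl10 0.131, Mrpl11 0.0188, Mrpl12 0.161, Mrpl22 0.103, Mrpl45 0.00950, Mrps7 0.0771, Mrps15 0.0942, Mrps18a 0.0392, Mrps18c 0.0220, Mrps21 0.0202, Mrps22 0.0679, Mrps23 0.0414 and Mrps25 0.00864.

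Limma without Ogg1Tg replicate 3, with the filter taken on all 6 libraries, gave Mrpl2 0.0377, Mrpl4 0.0204, Mrpl10 0.0859, Mrpl12 0.110, Mrpl22 0.0495, Mrps7 0.0309, Mrps15 0.0483 and Mrps22 0.0208. With each library left out in turn, log2 fold changes ran through 0 for Mrps18c (-0.180 to 0.00549), Mrps27 (-0.118 to 0.126), Mrps30 (-0.134 to 0.166), Mrpl30 (-0.0975 to 0.249), Mrps6 (-3.88e-05 to 0.355), Mrpl47 (-0.128 to 0.241), Mrps17 (-0.0296 to 0.287), Mrpl2 (-0.344 to 0.0377), Mrpl4 (-0.347 to 0.0204), Mrpl10 (-0.142 to 0.0859), Mrpl12 (-0.289 to 0.110), Mrpl22 (-0.362 to 0.0495), Mrps7 (-0.291 to 0.0309), Mrps15 (-0.303 to 0.0483) and Mrps22 (-0.292 to 0.0208).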

Other observations

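The symbol rule left out 4 annotated copies of members that were assigned reads. Mrps36-ps1 read 533, 587 and 492 scaled reads in Control and 494, 368 and 294 in Ogg1Tg replicates 1 to 3, the same order of libraries within Ogg1Tg as Mrps36 itself. Mrpl23-ps1 read 828, 802 and 607 in Control and 1013, 954 and 570 in Ogg1Tg. Mrps36-ps2 ranged from 56.3 to 115 and Mrpl48-ps from 26.1 to 53.3 over the 6 libraries. How many of these reads came from the parent genes was not tested.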
